A study of Mus musculus with 8 samples.

Results

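Collagens are the chains from which the triple helices of the extracellular matrix are built, and the messages of these chains were examined in AML12 cells cultured with or without irisin. The members were all array probes, control spots left out, whose accession belongs to a mouse gene named Col, a number, a and a number. This rule took 66 probes of 44 genes, out of 39429 probes on the array and 21612 gene symbols they could be matched to. By class, 11 genes (11 probes) were fibrillar, 6 genes (9 probes) were type IV chains of basement membranes, and 27 genes (46 probes) were other collagens.

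AML12 is one line of mouse hepatocytes, derived from an animal that carried a human TGFα transgene, and irisin is the peptide cut from the membrane protein Fndc5. Total RNA from 4 control samples, kept without irisin, and 4 samples given irisin at 0.5 µg/ml for 24 h was read on 8 Agilent arrays in a single color (Cy3), 1 sample to an array. Both groups were grown in the same serum-containing medium. Nothing in the labels says that the replicates were separate cultures, so that p-values measure the spread between these samples, and the number of arrays limits the precision.

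Fibrillar collagens form the cables of tissues, of which type I, built from Col1a1 and Col1a2 chains, is the main collagen of liver scars. Type IV chains join into the sheets under epithelia. The other collagens sit on fibrils (FACIT collagens), span the cell membrane, anchor basement membranes or release fragments such as endostatin, and in liver most collagen is made by stellate cells and fibroblasts rather than by hepatocytes.

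The start regions of 5 genes are shown as a description, and no expression result rests on them. Col1a2, Col23a1 and Col25a1 were called lower with irisin under 75th percentile, quantile and cyclic loess scaling. With normexp background correction and quantile normalization none of these was called, and with spike-in scaling only Col23a1 was. Normexp added an offset of 50 to each signal, which shrinks the log2 changes of dim probes such as these. Col4a1 and Col4a2 are transcribed in opposite directions from neighboring starts. The windows, from RefSeq on GRCm38.p6, run from 250 bases before to 50 bases after the start of the gene and are written 5′ to 3′ along the gene. Capitals mark matches on either strand to CCAAT, the CCAAT box, or GGGCGG, the GC box.
Col1a2, chr6:4505368-4505667, plus strand: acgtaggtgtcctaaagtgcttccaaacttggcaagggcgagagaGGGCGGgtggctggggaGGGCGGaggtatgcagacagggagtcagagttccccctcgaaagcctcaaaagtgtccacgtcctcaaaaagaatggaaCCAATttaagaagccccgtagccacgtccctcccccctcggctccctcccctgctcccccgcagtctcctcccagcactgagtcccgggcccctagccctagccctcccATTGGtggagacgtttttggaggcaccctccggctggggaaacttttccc
Col23a1, chr11:51289670-51289969, plus strand: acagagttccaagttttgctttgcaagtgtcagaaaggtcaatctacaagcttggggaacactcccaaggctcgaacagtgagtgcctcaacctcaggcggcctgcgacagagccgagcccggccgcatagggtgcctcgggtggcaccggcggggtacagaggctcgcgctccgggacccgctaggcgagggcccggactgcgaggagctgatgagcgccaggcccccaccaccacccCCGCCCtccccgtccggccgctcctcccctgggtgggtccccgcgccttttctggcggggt
Col25a1, chr3:130180595-130180894, plus strand: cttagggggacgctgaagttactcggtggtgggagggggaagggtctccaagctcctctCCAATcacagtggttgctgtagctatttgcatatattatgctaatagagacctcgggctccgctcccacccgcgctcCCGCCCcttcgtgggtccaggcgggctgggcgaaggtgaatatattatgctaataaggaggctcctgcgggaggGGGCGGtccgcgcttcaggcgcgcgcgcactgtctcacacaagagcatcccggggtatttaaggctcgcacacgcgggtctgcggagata
Col4a1, chr8:11312777-11313076, minus strand: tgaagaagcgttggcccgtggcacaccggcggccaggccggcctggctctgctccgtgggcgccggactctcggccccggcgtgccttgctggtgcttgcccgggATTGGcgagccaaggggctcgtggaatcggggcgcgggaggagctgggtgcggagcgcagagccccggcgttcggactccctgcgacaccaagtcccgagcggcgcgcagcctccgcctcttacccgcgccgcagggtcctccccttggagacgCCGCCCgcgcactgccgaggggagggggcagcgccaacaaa
Col4a2, chr8:11312555-11312854, plus strand: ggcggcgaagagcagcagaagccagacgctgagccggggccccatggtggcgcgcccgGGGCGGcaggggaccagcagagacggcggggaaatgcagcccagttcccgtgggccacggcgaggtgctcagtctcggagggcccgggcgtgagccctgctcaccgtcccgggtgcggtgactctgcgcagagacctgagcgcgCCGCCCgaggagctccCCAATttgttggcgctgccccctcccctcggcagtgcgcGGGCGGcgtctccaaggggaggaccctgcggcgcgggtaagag
The Col4a1 and Col4a2 windows overlapped by 78 bases, the only collagen windows of opposite strands to overlap, while 10.8% of all 32851 windows overlapped one of the opposite strand. In all, 35 of the 44 genes matched a window, in 38 windows, and Col12a1, Col14a1, Col1a1, Col22a1, Col26a1, Col2a1, Col4a3, Col5a2 and Col9a3 did not match. GGGCGG stood in 23 of the 38 collagen windows (60.5%) and in 35.7% of all windows. CCAAT stood in 34.2% of collagen windows and 37.4% of all, TATAAA (the TATA box) in 13.2% and 13.6%, and TGACTCA (the AP-1 site) in 2.63% and 5.20%. The collagen windows were richer in G and C, with a median of 59.8% against 52.7%, and the part of base composition in the share with GGGCGG was not tested. No motif searched overlaps another, and a match is a description of the letters only.

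The irisin arrays were brighter than the control arrays. The 75th percentile of the processed signal was 472 ± 70.1 in control and 783 ± 71.6 in irisin samples (SD, n = 4 each), a 1.67-fold difference. All control arrays were read on one slide and scan and all irisin arrays on another, so the slide or its scan and the treatment cannot be told apart. Between 59.5% and 64.0% of probes were well above background on an array, and negative control spots had a median signal of 0.988 to 1.01. Levels below are log2 signals from which the log2 of the array's own 75th percentile was subtracted. All 8 hepatocyte markers with a matching probe were above background on all 8 arrays, and none was called as changed. Of 10 stellate cell and fibroblast markers, 8 (Lrat, Des, Pdgfrb, Pdgfra, Reln, Dcn, Lum and Thy1) were above background on no array. The other 2, Hand2 and Acta2, were called lower with irisin, beside 11.7% of all tested probes and 33% of those in the 3 dimmest deciles. Their log2 changes were -0.80 and -0.68 under 75th percentile scaling. That scaling took 0.74 from the change of every probe, more than the Acta2 fall, so Acta2 was not lower on unscaled signal. Hand2 was above background on 4 control and 3 irisin arrays and so entered the test through the control group, where it is high. The summed level of the tested markers of this list was -4.80 to -4.39 in control and -5.48 to -5.14 in irisin samples, and its part in the collagen results was not tested. Of 5 endothelial and 5 macrophage markers, 2 each were above background on all 8 arrays. Of these Pecam1 was called lower (-0.61), under the same scaling and beside 11.7% of all tested probes. Its fall was also smaller than the 0.74 taken by the scaling, so it was not lower on unscaled signal. In RNA from a whole culture, fewer cells of a type and less RNA per cell cannot be told apart, nor can either from the slide or its scan.

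AML12 cells expressed a part of the collagen family. A probe of 18 of the 44 genes was well above background on all 8 arrays, and 18 genes had none above background on any array. Among fibrillar genes Col1a1, Col1a2 and Col27a1 were measured on all 8 arrays, while Col2a1, Col3a1, Col5a2, Col11a1 and Col24a1 were measured on none. Col3a1 forms the reticular fibers of liver. The basement membrane chains Col4a1, Col4a2, Col4a4, Col4a5 and Col4a6 were measured on all 8 arrays and Col4a3 on none. None of the 6 chains of beaded-filament type VI collagen was measured in enough arrays to be tested, and the short-chain network collagens Col8a1, Col8a2 and Col10a1 were above background on no array. Of the 66 probes, 28 were bright enough to be tested, 31 were above background on no array, and 7 were above it on some arrays but were not tested. Those 7 were probes of Col5a1 (3 irisin arrays), Col5a3 (1 irisin array), Col6a1 (1 control and 2 irisin arrays), Col6a2 (1 control array), Col6a4 (3 control and 1 irisin array), Col26a1 (1 control array) and a second probe of Col9a1 (2 control and 3 irisin arrays). Col6a3, Col6a5, Col6a6, Col9a3, Col13a1, Col17a1, Col19a1, Col22a1 and Col28a1 were above background on no array.

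**Figure D1:**
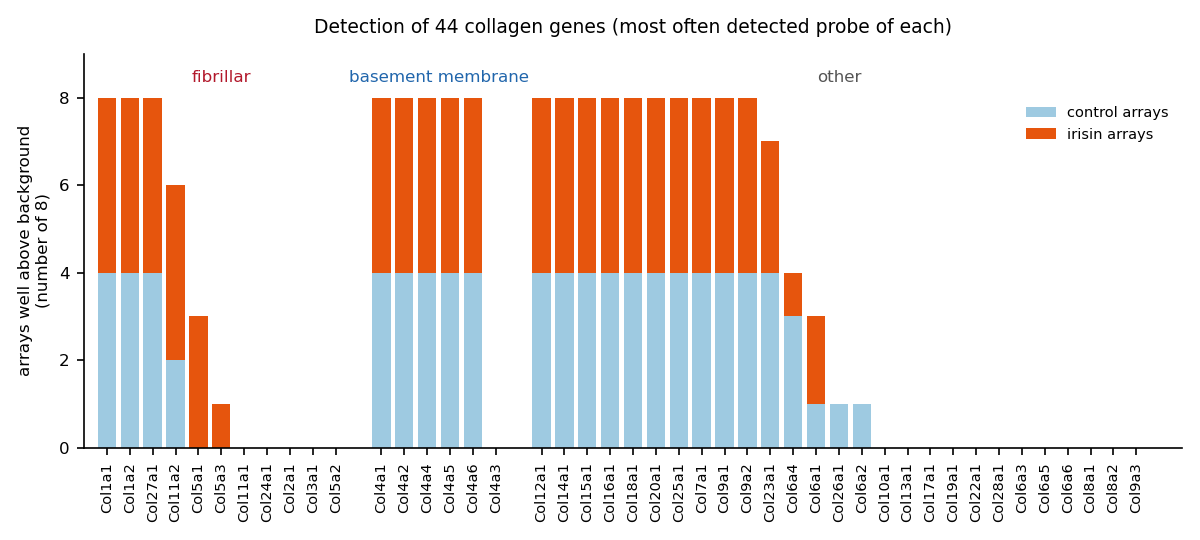
Number of arrays on which the most often detected probe of each of the 44 collagen genes was well above background, stacked for control (blue) and irisin (orange) arrays. Genes are grouped as fibrillar, basement membrane and other collagens, and 18 reach all 8 arrays while 18 have no bar.

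Testing required a signal well above background throughout the 4 arrays of at least 1 group, which held for 28 collagen probes of 20 genes. Calls required 1.5-fold or more and a limma p-value under 0.05 after adjustment over all 24092 tested probes. With irisin, 11 collagen probes, each of a different gene, were called lower and 0 were called higher. That is 39.3% of the tested collagen probes, against 11.7% of all tested probes called lower and 0.714% called higher. Each of the 11 gave p = 0.0286 in an exact two-sided permutation test, the smallest p that 4 against 4 arrays allow. The 11 had been picked by calls on these same values, so this p adds no further support. All irisin arrays lay below all control arrays for 23% of all tested probes. On unscaled signal the lowest exact permutation p of the 11 was 0.0571 (Col23a1). Dim probes were called lower more often throughout the array, at 33% in the 3 dimmest deciles of probes and 2.54% in the other 7 deciles. Of the 28 collagen probes, 16 lay in those 3 deciles and 10 of them were called lower, whereas 1 of the other 12 was. With only probes well above background on all 8 arrays, 10 of 26 collagen probes were called lower, beside 2397 of all 22818 probes. With the brightest tested probe standing for a gene, 7 of 20 collagen genes were called lower (10.2% of all genes) and 0 higher (0.531% of all genes), and the median change was -0.03 for collagen genes and -0.06 for all genes.

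**Figure D2:**
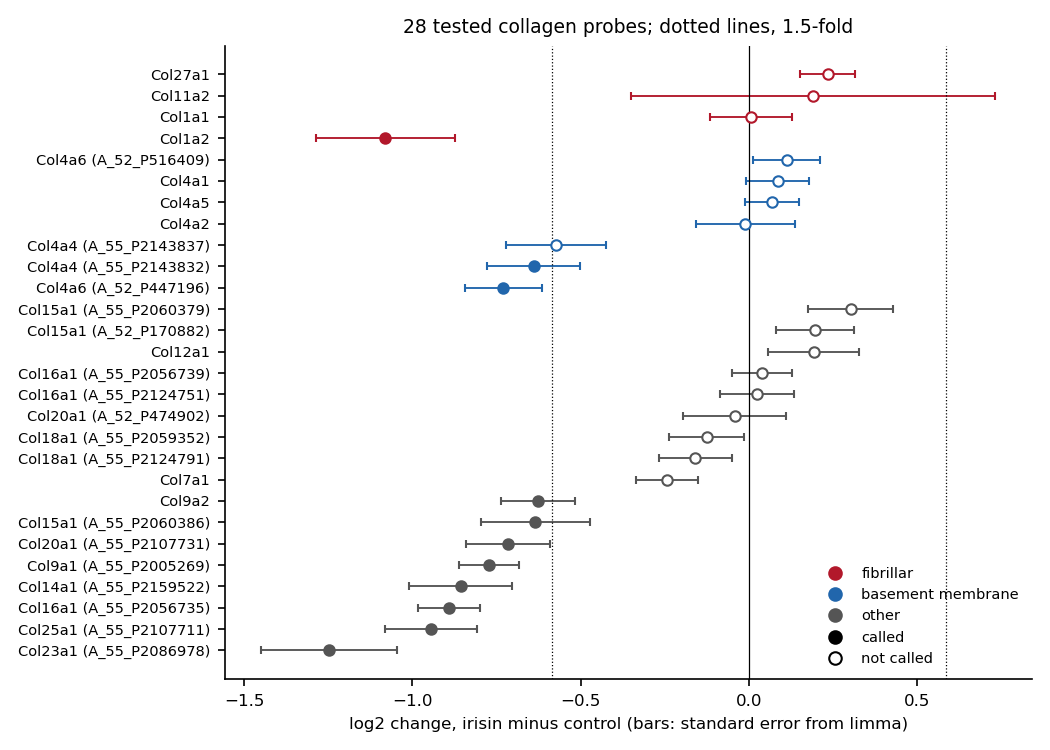
Log2 change with irisin (irisin minus control) of the 28 tested collagen probes, with the standard error from limma, colored by class. Filled points are the 11 called probes, all lower; dotted lines mark 1.5-fold. This is with 75th percentile scaling; with no scaling 5 of the 11 lie above 0.

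Whether a collagen probe was called lower depended on how the arrays were scaled. With quantile normalization 4 collagen probes were called lower (4.24% of all probes) and 1 higher (2.78%). With cyclic loess 3 were lower (3.84%) and 1 higher (2.9%). Scaled to spike-in controls, 1 was lower (1.54%) and 9 higher (31.2%), and with no scaling 0 were lower (0.672%) and 14 higher (61.9%). With normexp background correction followed by quantile normalization, 0 were called in either direction by limma, and 67 of all probes were lower and 54 higher. The normexp offset of 50 shrinks the log2 changes of dim probes. The absence of calls there therefore cannot decide whether dim collagen probes changed. Without scaling the median of all probes itself moved by 0.66, and that of the tested collagen probes by 0.60. The unscaled log2 changes of the 11 called probes ran from -0.51 to 0.11. The 75th percentile scaling took 0.74 from the change of every probe. A probe called lower at 1.5-fold therefore had to lie under that unscaled median. Col1a2, Col23a1 and Col25a1 were called lower under both quantile normalization and cyclic loess, Col4a6 under the first of these, and the other 7 under neither. The probe called lower with spike-in scaling was that of Col23a1.

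**Figure D3:**
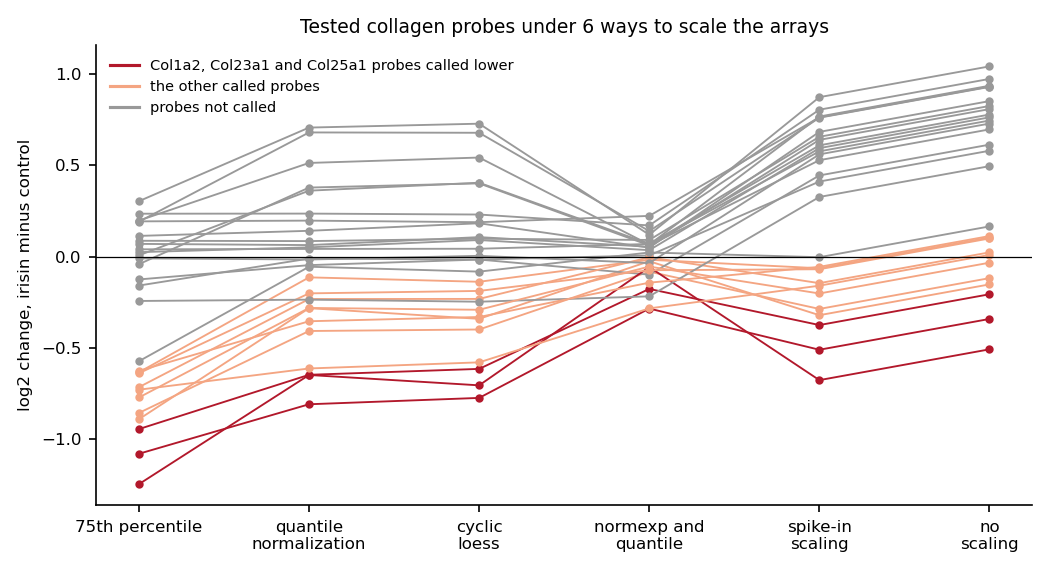
Log2 change (irisin minus control) of the 28 tested collagen probes under 6 ways of scaling the arrays, one line a probe. The 3 darkest lines (Col1a2, Col23a1 and Col25a1) lie below 0 in all 6, and with no scaling 5 of the other 8 called probes lie above 0.

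Of the fibrillar chains, Col1a2 fell and its partner Col1a1 was not called. Col1a2 (probe A_51_P182303, chromosome 6) had levels of -3.54, -4.03, -4.51 and -4.24 in control and -5.23, -4.86, -5.55 and -4.99 in irisin samples. All irisin arrays lay below all control arrays, as for 23% of all tested probes. The change was -1.08 (SE 0.21, limma adjusted p = 0.00294), 2.11-fold lower. In processed signal, before any scaling, the same probe read 32.1, 29.8, 23.5 and 26.4 in control and 21.3, 23.5, 17.2 and 26.7 in irisin samples, and those values overlapped. Col1a1 (chromosome 11) had levels of -5.12, -5.40, -5.35 and -4.96 in control and -5.14, -5.05, -5.42 and -5.19 in irisin samples. The Col1a1 groups overlapped, with a change of 0.01 (SE 0.12, limma adjusted p = 0.981).

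The difference between these chains is free of any factor that applies to a whole array, since both were read on the same arrays, though quantile normalization, loess or another background correction can move it. Col1a1 minus Col1a2 was -1.13 ± 0.42 in control and -0.04 ± 0.17 in irisin samples (SD, n = 4 each), so that it shifted by 1.09. An exact two-sided permutation test gave p = 0.0286, again the smallest possible. It was 0.0531 after Benjamini-Hochberg adjustment over 13 such pairs, which misses the 0.05 threshold. A larger shift could have lowered neither value. With normexp and quantile normalization the changes were 0.07 for Col1a1 and -0.29 for Col1a2, and with normexp alone -0.49 and -0.79. Both probes read under 50 on every array, and the normexp offset of 50 shrinks their log2 changes.

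The other tested fibrillar chains were not called. Col27a1, a fibrillar chain of cartilage, had levels of -0.47, -0.43, -0.47 and -0.49 in control and -0.07, -0.23, -0.33 and -0.29 in irisin samples. All irisin arrays lay above all control arrays (4.18% of all tested probes), with a change of 0.23 (SE 0.08, limma adjusted p = 0.0625). Col11a2, a chain of type XI collagen, was above background on 2 control and 4 irisin arrays, with a change of 0.19 (SE 0.54, limma adjusted p = 0.853). Irisin replicate 1 stood apart, at a signal of 51.9 against 6.5 to 8.49 on the other irisin arrays, and without single arrays the change ran from -0.50 to 0.53.

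Col4a1 and Col4a2, the chains found in nearly all basement membranes, did not pass the test. Col4a1 had levels of 0.70, 0.68, 0.90 and 0.69 in control and 0.65, 0.96, 0.87 and 0.83 in irisin samples. Its change was 0.09 (SE 0.09, limma adjusted p = 0.584). Col4a2 had levels of 0.85, 0.83, 1.12 and 0.81 in control and 0.45, 1.10, 1.12 and 0.92 in irisin samples. Its change was -0.01 (SE 0.15, limma adjusted p = 0.974), and the groups of both genes overlapped. Col4a1 minus Col4a2 shifted by 0.10 (exact permutation p = 0.457).

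Col4a6 and Col4a4, chains of more restricted basement membranes, each had a probe called lower, though with no scaling these probes changed by 0.0087 and 0.10. Col4a6 (chromosome X) has 2 tested probes that differed. Probe A_52_P447196 had levels of -2.95, -3.01, -2.92 and -2.77 in control and -3.76, -3.36, -3.85 and -3.60 in irisin samples. Its irisin arrays all lay below its control arrays, as for 23% of all tested probes. The change was -0.73 (SE 0.11, limma adjusted p = 0.000923), and this was the only called collagen probe outside the 3 dimmest deciles. Probe A_52_P516409 had levels of -2.52, -2.36, -2.16 and -2.14 in control and -2.21, -2.11, -2.19 and -2.23 in irisin samples, which overlapped. Its change was 0.11 (SE 0.10, limma adjusted p = 0.481). Col4a5, which lies beside Col4a6 on the X chromosome, had a change of 0.07 (SE 0.08, limma adjusted p = 0.618).

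With 75th percentile scaling, both tested Col4a4 probes (chromosome 1) were lower on every irisin array than on any control array. This held for 23% of all tested probes, and only 1 of the Col4a4 probes reached 1.5-fold. Probe A_55_P2143832 had levels of -5.18, -5.43, -5.33 and -5.71 in control and -6.38, -5.92, -5.96 and -5.95 in irisin samples. The change was -0.64 (SE 0.14, limma adjusted p = 0.00572). It was -0.56 without control replicate 1 and -0.53 without irisin replicate 1, and not called in either case. Probe A_55_P2143837 had levels of -5.58, -5.99, -5.85 and -5.98 in control and -6.69, -6.02, -6.48 and -6.50 in irisin samples. Its change was -0.57 (SE 0.15, limma adjusted p = 0.016), and it was called without control replicate 2, control replicate 4 or irisin replicate 2 (-0.62, -0.62 and -0.71).

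Among the other collagens, 2 of the 4 transmembrane chains, Col23a1 and Col25a1, had a tested probe. Each of these probes was called lower, beside 11.7% of all tested probes. Both lay in the 3 dimmest deciles, where 33% of all probes were called lower. These calls depended on the processing. Both probes were also called lower with quantile normalization and with cyclic loess. With normexp and quantile normalization they changed by -0.06 (Col23a1) and -0.18 (Col25a1), and neither was called. Mean processed signals in control and irisin samples were 7.29 and 5.31 for Col23a1 and 23.8 and 20.9 for Col25a1. The normexp offset of 50 exceeds these and shrinks their log2 changes, so the missing calls decide little. Col23a1 (chromosome 11) was above background on 4 control and 3 irisin arrays, so that it entered the test through the control group, where it is high, and was not tested when all 8 arrays were required. Probe A_55_P2086978 had levels of -5.99, -6.00, -6.10 and -5.97 in control and -7.91, -6.92, -7.38 and -6.83 in irisin samples. The fitted change was -1.25 (SE 0.20, limma adjusted p = 0.00116), and it includes irisin replicate 1, whose signal of 3.31 was not well above background. Col25a1 (chromosome 3), the collagen found in amyloid plaques, had levels of -4.09, -4.47, -4.30 and -4.34 in control and -5.57, -5.13, -5.33 and -4.96 in irisin samples. Its irisin arrays all lay below its control arrays, as for 23% of all tested probes. The change was -0.95 (SE 0.14, limma adjusted p = 0.000592). In processed signal Col25a1 read 21.8, 21.8, 27.1 and 24.6 in control and 16.8, 19.5, 20.0 and 27.4 in irisin samples, which overlapped. The other probes of both genes were above background on no array.

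FACIT collagens, which coat fibrils, had 9 tested probes of 6 genes, of which 5 were called lower (11.7% of all probes). All 5 were among the 6 FACIT probes in the 3 dimmest deciles, where 33% of all probes were called lower. Col14a1 (chromosome 15) had levels of -5.36, -5.44, -5.26 and -5.41 in control and -6.69, -5.83, -6.22 and -6.16 in irisin samples. The change was -0.86 (SE 0.15, limma adjusted p = 0.00211). The type IX chains Col9a1 (chromosome 1) and Col9a2 (chromosome 4), which form one molecule in cartilage, were both called lower. With no scaling Col14a1 changed by -0.12, Col9a1 by -0.03 and Col9a2 by 0.11 (limma adjusted p = 0.553, 0.857 and 0.569). Col9a1 had levels of -5.60, -5.53, -5.80 and -5.66 in control and -6.54, -6.33, -6.47 and -6.34 in irisin samples. Its change was -0.77 (SE 0.09, limma adjusted p = 0.000221). Col9a2 had levels of -4.35, -4.23, -4.18 and -4.15 in control and -5.13, -4.63, -4.87 and -4.79 in irisin samples. Its change was -0.63 (SE 0.11, limma adjusted p = 0.00196), and -0.53 and not called without irisin replicate 1. All irisin arrays lay below all control arrays for these 3 genes, as for 23% of all tested probes. Col9a1 minus Col9a2 shifted by -0.15 (exact permutation p = 0.229). Under quantile normalization and cyclic loess none of the 3 was called, at -0.41 to -0.28 and -0.40 to -0.29.

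Col16a1 and Col20a1 each had a called probe beside others that were not. With no scaling the called probes changed by -0.15 (Col16a1) and 0.02 (Col20a1). For Col16a1 (chromosome 4), probe A_55_P2056735 had levels of -6.38, -6.23, -6.26 and -6.24 in control and -7.37, -7.05, -7.12 and -7.14 in irisin samples. The change was -0.89 (SE 0.09, limma adjusted p = 0.000129). Probe A_55_P2056739 had levels of 0.29, 0.29, 0.49 and 0.54 in control and 0.46, 0.51, 0.35 and 0.43 in irisin samples, and probe A_55_P2124751 of -2.45, -2.17, -2.17 and -2.03 in control and -2.18, -2.02, -2.36 and -2.18 in irisin samples. The groups of these probes overlapped, with changes of 0.04 (SE 0.09) and 0.02 (SE 0.11). For Col20a1 (chromosome 2), probe A_55_P2107731 had levels of -5.84, -5.72, -5.68 and -5.59 in control and -6.09, -6.40, -6.68 and -6.52 in irisin samples. The change was -0.72 (SE 0.12, limma adjusted p = 0.0017). Probe A_52_P474902 had levels of -5.81, -5.88, -5.54 and -5.26 in control and -5.33, -5.72, -5.79 and -5.82 in irisin samples, with a change of -0.04 (SE 0.15, limma adjusted p = 0.887). Col12a1, the last tested FACIT gene, had a change of 0.19 (SE 0.14, limma adjusted p = 0.371).

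The multiplexins Col15a1 and Col18a1, whose ends are cut into fragments with anti-angiogenic activity, were each measured by several probes, which differed for Col15a1. Probe A_55_P2060386 of Col15a1 (chromosome 4) had levels of -5.77, -5.92, -6.07 and -5.72 in control and -6.86, -6.14, -6.74 and -6.27 in irisin samples. This probe was lower on every irisin array than on any control array, as were 23% of all tested probes. Its change was -0.63 (SE 0.16, limma adjusted p = 0.015), but it was not called without control replicate 4, irisin replicate 1 or irisin replicate 3 (-0.58, -0.51 and -0.55), and with no scaling it changed by 0.10. Probe A_55_P2060379 had levels of -5.87, -5.62, -5.25 and -5.66 in control and -5.41, -5.28, -5.16 and -5.33 in irisin samples. Its change was 0.30 (SE 0.13, limma adjusted p = 0.115), and it was called higher by 0.71 with quantile normalization and 0.73 with cyclic loess. With normexp its change turned to -0.47 (limma adjusted p = 0.000438), under 1.5-fold, and with normexp and quantile normalization it was 0.12. On unscaled signal this probe changed by 1.04, from a mean of 10.0 in control to 20.0 in irisin samples. The normexp offset of 50 shrinks such a dim change before the array scaling is subtracted. The reversed sign therefore gives no direction. Probe A_52_P170882 had levels of -4.80, -5.17, -5.06 and -4.85 in control and -4.97, -4.57, -4.73 and -4.83 in irisin samples, with a change of 0.20 (SE 0.12, limma adjusted p = 0.275). The 2 Col18a1 probes (chromosome 10) changed by -0.13 (SE 0.11) and -0.16 (SE 0.11). Col7a1 (chromosome 9), the anchoring fibril collagen, had a change of -0.24 (SE 0.09, limma adjusted p = 0.0815).

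**Figure D4:**
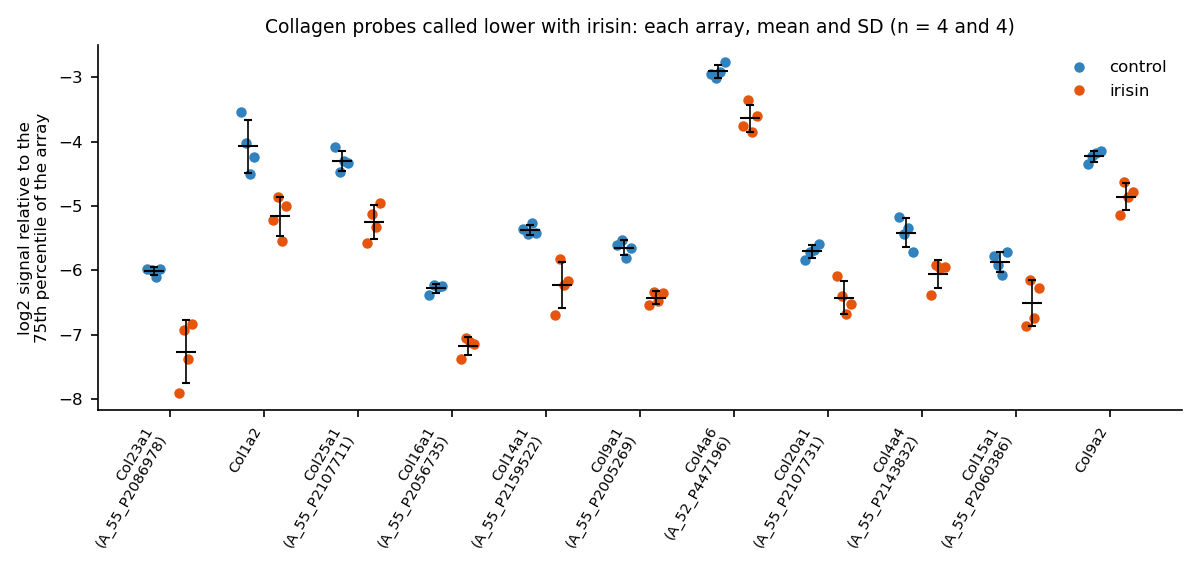
Level of the 11 called probes on each array (log2 signal minus that of the array's 75th percentile), control in blue and irisin in orange, with mean and SD (n = 4 each). On this scale all irisin arrays lie below all control arrays for each probe, as for 23% of all tested probes. With no scaling 5 of the 11 have a higher mean with irisin.

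Because the probes of one gene were read on the same arrays, their difference is likewise free of a factor that applies to a whole array. In 10 such pairs of tested probes, 6 shifted between the groups at the smallest exact permutation p of 0.0286. After adjustment over the 13 pairs this was 0.0531, which missed the threshold and which no larger shift could lower. Each of the 6 set a probe called lower against one not called, so these shifts follow in part from the calls. In Col16a1, the called probe minus the other 2 shifted by -0.93 and -0.92, while those 2 shifted by 0.02 against each other (p = 0.829 by the exact permutation test). The Col4a6 pair shifted by -0.84 and the Col20a1 pair by 0.67. In Col15a1 both pairs with the called probe shifted, by 0.83 and 0.94, and the pair of the other 2 by -0.11 (exact permutation p = 0.571). The Col18a1 pair shifted by 0.03 and the Col4a4 pair by -0.07 (exact permutation p = 0.429 and 0.629). In Col16a1, Col20a1, Col15a1 and Col4a6 the called probe lay in a lower decile of signal, 1 against 7 and 5 for Col16a1, 1 against 2 for Col20a1 and Col15a1, and 4 against 5 for Col4a6. The differences depended on the background correction. Normexp adds an offset of 50, which shrinks the log2 change more for the dimmer probe of a pair. With normexp and quantile normalization the called probe changed by -0.03 against 0.07 and 0.03 of the others in Col16a1, by -0.0044 against 0.06 in Col20a1, by -0.02 against 0.07 and 0.12 in Col15a1, and by -0.28 against 0.05 in Col4a6. With normexp alone the values were -0.66 against 0.07 and -0.12 in Col16a1, -0.64 against -0.55 in Col20a1, -0.63 against -0.47 and -0.47 in Col15a1, and -0.62 against -0.16 in Col4a6. These pairs give no direction for the gene.

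**Figure D5:**
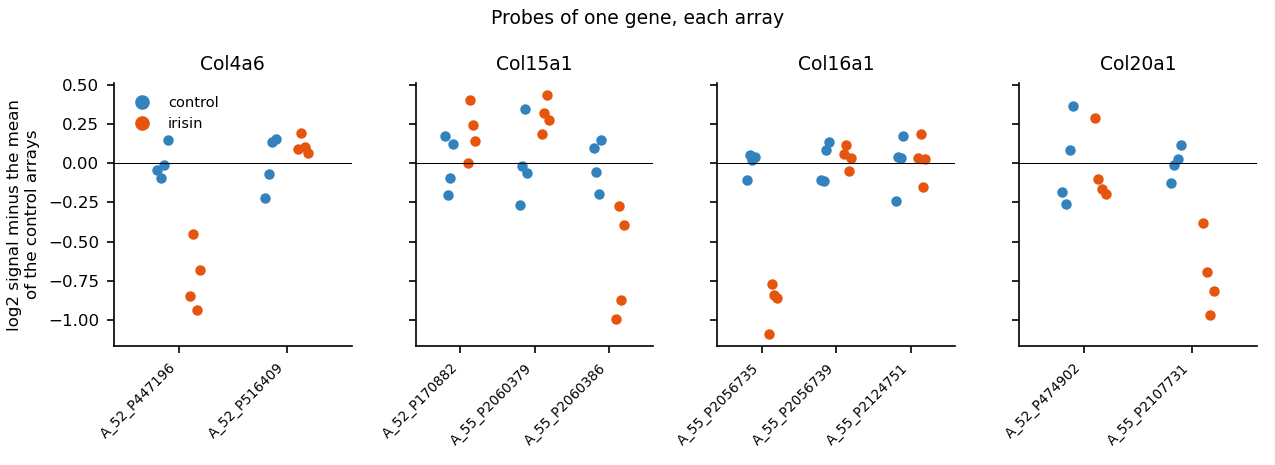
Log2 signal of each tested probe of Col4a6, Col15a1, Col16a1 and Col20a1 on each array, minus the mean of the control arrays of that probe; control in blue and irisin in orange. With 75th percentile scaling, in each gene 1 probe lies below its controls on all irisin arrays (23% of all tested probes do) and the others overlap them.

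Set by class, 1 of 4 fibrillar probes, 2 of 7 basement membrane probes and 8 of 17 other probes were called lower, beside 11.7% of all probes. The median change was 0.10 over 4 fibrillar genes, 0.07 over 5 basement membrane genes and -0.24 over 11 other genes, beside -0.06 over all genes. With quantile normalization these medians were 0.30, 0.06 and -0.24. The classes also differed in brightness, since 3 of 4, 2 of 7 and 11 of 17 of their probes lay in the 3 dimmest deciles, where 33% of all probes were called lower. The difference between classes was not tested.

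The genes that fold, export, crosslink, bind and degrade collagen mostly did not pass the test. Of 62 such genes 48 were tested, 3 were lower (10.2% of all genes) and 1 was higher (0.531% of all genes), with a median change of -0.05. Each called gene lay in the 3 dimmest deciles, where 33% of all probes were called lower. Among 18 tested genes of chain modification and folding, Tmem38b, an endoplasmic reticulum potassium channel needed for calcium release, rose by 0.96 (SE 0.09, limma adjusted p = 0.000111). Its level was -4.42, -4.65, -4.62 and -4.50 in control and -3.59, -3.68, -3.43 and -3.65 in irisin samples. Tmem38b was higher under each scaling, at 1.17 (quantile), 1.19 (loess), 1.53 (spike-in) and 1.70 (no scaling), but with normexp and quantile normalization it was 0.46 and not called. The normexp offset of 50 shrinks the changes of dim probes. P4ha3, a prolyl hydroxylase subunit, changed by -0.58, P3h1, a prolyl 3-hydroxylase, by -0.36 and the collagen chaperone Serpinh1 by -0.30, and none was called. The 8 export genes held no call, with Sec24d at 0.49, Creb3l1 at -0.30 and Sar1b at 0.20.

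Of 10 tested genes for propeptide removal and crosslinking, Loxl1, a lysyl oxidase, and Pxdn, the peroxidase that crosslinks type IV collagen, fell by 0.68 and 0.60 on the log2 scale (limma adjusted p = 0.000849 and 0.00127). A second Loxl1 probe changed by -0.18 and was not called. Neither Loxl1 (-0.21 and -0.21) nor Pxdn (-0.45 and -0.41) was called with quantile normalization or cyclic loess, and with no scaling they changed by 0.06 and 0.14. Of 6 tested receptors, Lair1, an inhibitory collagen receptor of leukocytes, fell by 0.84 (limma adjusted p = 0.000273). It changed by -0.56 with quantile normalization and -0.53 with cyclic loess, not called, and by -0.10 with no scaling. The collagen receptors Itga1 and Ddr1 changed by 0.25 and -0.28. Among 6 tested degradation genes 0 were called, and Mmp14, a membrane collagenase, changed by -0.31.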

How the data were processed

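Processed signal intensity on a linear scale was deposited by the authors for 4 control and 4 irisin arrays, made with Agilent Feature Extraction 12.0.3.1 per the file headers (background subtracted, not normalized between arrays). The deposited value table equaled these values within 0.000500%. Probes were named by accession through RefSeq (GRCm38.p6). Files give mm9 positions, which were not used. Spots marked as outliers (at most 0.463% of an array) were left out and spots of one probe averaged. Fits used limma 3.58.1 in R 4.3.3 over 24092 probes, without covariates, and were tested on simulated data. Calls needed 1.5-fold and a Benjamini-Hochberg adjusted p under 0.05. Single probes and 13 probe pairs were given exact permutation tests (two-sided, 70 assignments). Files were read with Python 3.11.15, pandas 2.3.3 and plotted with matplotlib 3.10.9.

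Members, gene lists and alternatives were chosen with earlier results of these data known. Values per array are given for called collagen probes, the largest changes of each class and genes with several probes of which at least 1 was called; of the assembly genes, called ones and at most 3 others a role are named. Normexp (offset 50) used the median spot signal, the raw column the files hold, and local backgrounds marked non-uniform took the median of the array. Probe pairs and normexp with quantile normalization were added after seeing the data.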

Additional observations from a re-analysis of the deposited data

Results flagged for a closer look

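Of 56 groups of 4 arrays checked over the 28 tested collagen probes, 3 held an array far from the other 3 of its group, where about 1 in 20 is what chance gives. For Col4a1, control replicate 3 was at 0.90, against 0.68 to 0.70 on the other control arrays, and without it the change was 0.14 in place of 0.09. The same array was at 1.12 for Col4a2, against 0.81 to 0.85, and without it the change was 0.06 in place of -0.01. Neither gene was called with or without it. Irisin replicate 1 was at -6.38 for Col4a4 probe A_55_P2143832, against -5.96 to -5.92 on the other irisin arrays, and without it the change was -0.53 and not called.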

How the results depend on the processing

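The count of 11 collagen probes called lower was 8 to 12 with each array left out in turn, 12 with normexp, 10 with the methods' test, 37 of 66 with no filter on dim probes, 4 with quantile normalization, 3 with cyclic loess, 1 scaled to spike-in probes, and 0 unscaled or with normexp and quantile normalization. The count of 0 called higher was 0 to 0 with each array left out, 1 with quantile normalization, 1 with cyclic loess, 9 scaled to spike-in probes and 14 unscaled. The median change of the collagen genes, -0.03, changed sign with quantile normalization (0.015), cyclic loess (0.023), normexp with quantile normalization (0.027), spike-in probes (0.54), no scaling (0.71) and without control replicate 4 (0.0034), ranging from -0.10 to 0.0034 with each array left out. It was -0.26 over the mean of a gene's probes, -0.66 with no filter and -0.48 with normexp. The 4 assembly genes called became 8 by adjusted p alone, 11 with no filter, 1 with quantile normalization, 1 with cyclic loess, 0 with normexp and quantile normalization, 16 scaled to spike-in probes and 35 unscaled, and 3 to 5 with each array left out. With no scaling the change turned positive for Col15a1 A_55_P2060386 (0.10), Col18a1 A_55_P2059352 (0.61) and A_55_P2124791 (0.58), Col20a1 A_52_P474902 (0.70) and A_55_P2107731 (0.023), Col4a2 (0.73), Col4a4 A_55_P2143832 (0.10) and A_55_P2143837 (0.16), Col4a6 A_52_P447196 (0.0087), Col7a1 (0.49) and Col9a2 (0.11). With normexp the sign changed for 8 of the 28 probes, none of them called in either fit. The cause was not tested. With 10 of the 11 calls among dim probes, signal over background limits these results. The normexp offset of 50 shrinks the log2 changes of such probes, so missing calls under normexp with quantile normalization decide little for them.

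With the replicate number as a block, 11 collagen probes were called lower and 0 higher, and the block changed no call. Deviations from the group means had correlations of 0.13, -0.38, -0.14 and 0.18 between arrays of the same number. Between arrays of different numbers they ran from -0.26 to 0.40. No pairing by number was seen, and so few arrays cannot exclude one.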
